A study of Mus musculus with 6 samples.

Results

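The T and NK barcodes of the mouse spinal cord libraries were 79 of 3360 retained single-cell barcodes. They were chosen by UMIs (unique molecular identifiers, which count RNA molecules) of marker genes, so those genes are described and not tested. Retained barcodes had 200 or more detected genes and no more than 20% of UMIs from mitochondrial genes. T and NK barcodes then had at least 2 UMIs summed over 9 genes, Trbc1, Trbc2, Cd3d, Cd3e, Cd3g, Ms4a4b, Nkg7, Gzma and Xcl1, and 0 UMIs over the 3 B cell genes Cd79a, Cd79b and Ms4a1. The cells came from spinal cords that had been digested with Accutase, freed of myelin and passed over an OptiPrep gradient, and their RNA was tagged at the 3′ end in droplets by Drop-seq. SOD1-Nec libraries came from SOD1-G93A mice, which carry a mutant SOD1 transgene and model amyotrophic lateral sclerosis, given Necrostatin-1s, which blocks the kinase RIPK1. SOD1-Veh libraries came from SOD1-G93A mice given vehicle, and WT-Veh libraries from wild-type mice given vehicle. Each group held 2 libraries. The labels give no age, dose, promoter or animal of origin, so p-values here measure only how libraries of a group vary, which may be technical. No wild-type library with Necrostatin-1s was part of the comparison.

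T cells recognise antigen through a receptor whose alpha and beta chains signal through the CD3 chains, and the kinase Lck and the adaptor Lat carry that signal inward. NK cells lack this receptor and are steered by activating and inhibitory receptors of the Ncr and Klr families. Both can kill target cells with granules that hold granzymes and perforin, and both release the chemokine Ccl5. In SOD1 mutant mice, T cells are known to enter the spinal cord as disease advances.

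The receptor beta chain gave the most T cell receptor UMIs in these barcodes, and it comes from a pair of near-identical constant genes. Trbc1 and Trbc2 lie on the plus strand of chromosome 6, and the tables list them apart without giving the rule used for reads that match both. Of 518 coding bases, 495 were identical (95.6%) in the GENCODE M21 annotation of GRCm38, a later build than the mm9 named in the submitters' processing notes. The last 60 coding bases of each are shown because they hold 11 of the differences, marked by capitals. They are joined across an intron and span chr6:41539294-41539662 in Trbc1 and chr6:41547837-41548178 in Trbc2.
Trbc1: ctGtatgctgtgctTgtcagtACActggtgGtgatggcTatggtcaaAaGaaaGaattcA
Trbc2: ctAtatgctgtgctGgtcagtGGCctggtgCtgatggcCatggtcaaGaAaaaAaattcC
Trbc1 had 46 UMIs in 19 barcodes and Trbc2 had 104 UMIs in 32, with 10 barcodes holding both. Only coding bases were compared, while the RNA was tagged at the 3′ end, so how well reads divide between the 2 genes was not tested.

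The 6 libraries held 1508618 to 1767205 UMIs, and their 21919 barcodes gave 399 to 794 retained barcodes each. Scrublet, a doublet caller, marked 29 retained barcodes, of which 1 was a T and NK barcode. Of the retained barcodes, 2 shared their sequence with a barcode of another library, and 0 of these were T and NK barcodes. The label check on the transgene used the single Sod1 entry of the tables, in which human and mouse reads cannot be told apart. Over the retained barcodes outside the T and NK rule, Sod1 stood at 37.9 and 43.9 UMIs per 10000 in SOD1-Nec, 41.5 and 55.4 in SOD1-Veh, and 2.38 and 1.82 in WT-Veh, so the mutant libraries were high and the wild-type libraries low, as labelled.

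The rule gave 18 and 15 T and NK barcodes in SOD1-Nec, 9 and 10 in SOD1-Veh, and 14 and 13 in WT-Veh. Their median depth was 448.5 and 628 UMIs in SOD1-Nec, 840 and 1087.5 in SOD1-Veh, and 958.5 and 817 in WT-Veh, so both SOD1-Nec libraries were shallower than the other 4. The median over all 79 was 665 UMIs, against 598 in the other retained barcodes. At the threshold, 18 barcodes had exactly 2 UMIs of the rule genes, and 5 of them had a Ccl5 UMI. Of the 61 barcodes with more, 40 had one. Just outside, 46 barcodes had 1 such UMI, and 6 of these had Ccl5. No barcode reached 2 rule UMIs and was turned away by a B cell gene.

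The label held for most of these barcodes and not for all. The check used 2 lists: T cell receptor, coreceptor and proximal signalling genes, and NK cell receptor and transcription factor genes. A UMI of either list was present in 66 of the 79 barcodes, while 13 had none. Of the 66, 50 had a UMI of the rule's own T cell receptor or CD3 genes (63.3% of all 79). Among these 50, 24 had no NK receptor UMI and 26 had one. A further 15 had an NK receptor UMI and none of those T cell genes, and 1 had another gene of the T list. Per library, the barcodes with a receptor UMI numbered 13 and 13 in SOD1-Nec, 9 and 9 in SOD1-Veh, and 10 and 12 in WT-Veh.

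**Figure D1:**
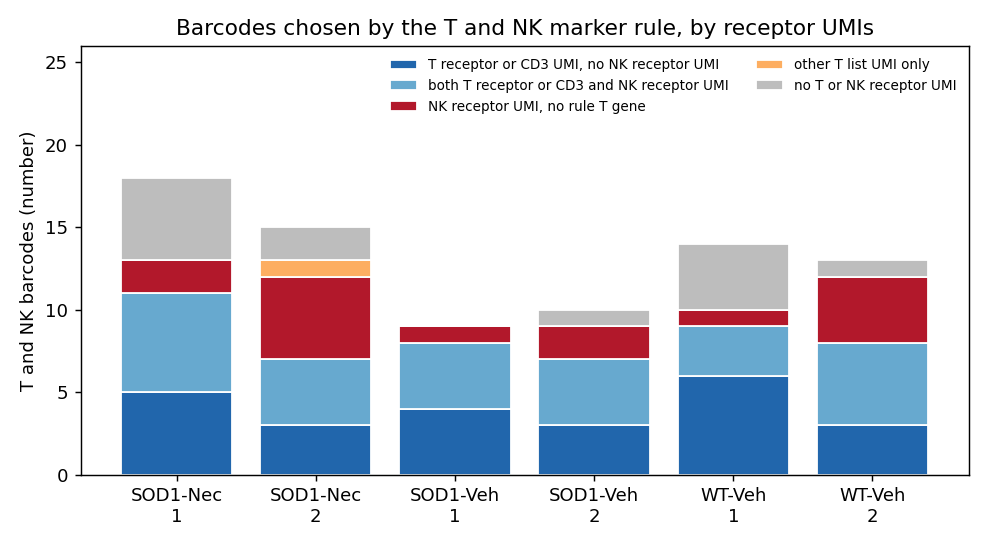
Number of T and NK barcodes per library (bars stacked by which receptor UMIs a barcode held), for SOD1-Nec, SOD1-Veh and WT-Veh replicates 1 and 2. Barcodes without any T or NK receptor UMI numbered 5 and 2 in SOD1-Nec, 0 and 1 in SOD1-Veh, and 4 and 1 in WT-Veh.

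Most of the 13 barcodes without a receptor UMI went against the label. In 9 of them Nkg7, a granule membrane protein, was the only rule gene, and 7 of these 9 held at least 3 UMIs of neutrophil or myeloid progenitor genes. The other 2 held 1 and 0 UMIs of the neutrophil, progenitor and monocyte lists. Elane, Mpo and Prtn3, which encode granule proteins of developing neutrophils, had 114, 84 and 51 UMIs, and every one of those UMIs among the 79 barcodes lay in this set. In the other 4, Ms4a4b was the only rule gene, and each held at least 15 monocyte list UMIs. Ccl5 was found in 0 of the 13, which allows a share of up to 23.1%, against 45 of the 66 with a receptor UMI. These 13 carried 28245 of the 88620 UMIs (31.9%), and 15530 of the 26264 UMIs in WT-Veh replicate 1. Most level comparisons are therefore given for all 79 barcodes and again for the 66, a trimming chosen after the values were seen.

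UMIs of these lists also occur outside T and NK cells. A UMI of either receptor list was present in 5.85% of the other retained barcodes (192 of 3281), and in 14.8% of B cell, 6.53% of monocyte and 2.42% of erythroid barcodes, with median depths of 500.5, 565 and 1901 UMIs. The share was not alike between those classes. A UMI of the rule's T cell receptor and CD3 genes was rarer, at 0.518% of the other retained barcodes.

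The rule genes show how sparse the data were; they chose the barcodes, so their levels are a description. Nkg7 had 147 UMIs in 51 barcodes, Ms4a4b (a lymphocyte membrane protein) had 109 in 45, and Trbc2 had 104 in 32. Gzma, the granzyme A protease, had 71 UMIs in 17 barcodes, Xcl1, a chemokine for cross-presenting dendritic cells, had 46 in 16, and Cd3d had 38 in 25. Cd3g had 23 UMIs in 13 barcodes and Cd3e had 13 in 11.

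Ccl5, which the rule did not use, had the most UMIs among the 25 genes with the largest ratios. It had 354 UMIs in 45 of the 79 barcodes, 39.9 UMIs per 10000, against 0.0941 per 10000 in the other retained barcodes, a ratio of 424. It was also found together with the cytotoxic genes: 35 of the 51 barcodes with Nkg7, 16 of the 17 with Gzma and 29 of the 45 with Ms4a4b held Ccl5. Among B cell and monocyte barcodes, 0% had a Ccl5 UMI, and among neutrophil barcodes 0.496% had one.

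T cell receptor signalling and coreceptor genes followed. Of 18 genes of the T list outside the rule that the tables held, 16 were higher per 10000 UMIs in T and NK barcodes than in the others, with a median ratio of 48.7 among those with a UMI elsewhere. Over all genes with a UMI in any retained barcode, 32.1% were higher in T and NK barcodes. Only 8629 genes had a UMI in T and NK barcodes, and the others could not be higher. Lck, the kinase of the receptor complex, had 25 UMIs in 15 barcodes and a ratio of 72.4. Lat, its adaptor, had 19 in 12 and a ratio of 55.0. Cd27, a costimulatory receptor of T and NK cells, had 16 in 11 and a ratio of 111, and Cd2, an adhesion receptor, had 20 in 14 and a ratio of 10.9. Cd247, the zeta chain shared by the T cell receptor and some NK receptors, had 8 UMIs in 8 barcodes.

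The CD4 and CD8 coreceptors were rarely seen. Cd4, which marks helper T cells, had 1 UMI in 1 barcode, Cd8a had 2 in 2 and Cd8b1 had 7 in 5. The last 2 encode the chains of the coreceptor of cytotoxic T cells. A UMI of any of the 3 was present in 5 barcodes, all of them with a T cell receptor or CD3 UMI. Of the 50 barcodes with such a T cell UMI, 45 could not be placed as CD4 or CD8 T cells at this depth. The 1 barcode with Cd4 also held Cd8a, so it could not be placed either. Trac, the alpha chain constant gene, had 4 UMIs in 3 barcodes, and Tcrg-C1, a gamma chain constant gene, had 0, with 1 UMI in the other retained barcodes. Trdc, Tcrg-C2 and Tcrg-C4 were not analysed here.

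The NK receptor list, which holds no rule gene, had a higher median ratio than the T list without its 5 rule genes. The medians thus rest on unlike sets of genes. Of 21 NK list genes in the tables, 20 were higher in T and NK barcodes, with a median ratio of 198 among the 14 with a UMI elsewhere. Klrd1, the CD94 chain of inhibitory and activating receptors, had 31 UMIs in 19 barcodes and a ratio of 98.0. Klrk1, the activating receptor NKG2D, had 23 in 15, and Klrb1c, the NK1.1 antigen, had 17 in 11. Ncr1, the activating receptor NKp46, had 18 UMIs in 10 barcodes and 0 in the other retained barcodes, which puts its ratio at 209 or more against a floor of 3 counts. Eomes, a transcription factor of NK cells and memory T cells, had 9 UMIs in 6 barcodes. Klra7, a Ly49 receptor, had 19 UMIs in 8 barcodes of 4 libraries, and reads of the near-identical Klra genes could have been divided among them.

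Granule genes outside the rule were mostly higher as well. Of 11 cytotoxic granule genes outside the rule, 9 were higher in T and NK barcodes, with a median ratio of 20.9. Ctsw, a cathepsin of cytotoxic lymphocytes, had 21 UMIs in 12 barcodes and a ratio of 365. Gzmb had 9 UMIs in 5 barcodes and Prf1, which encodes perforin, had 7 in 6. Srgn, the granule proteoglycan serglycin, had 114 in 35. These are counts of molecules, and the levels of different genes are not compared per length, since a 3′ tag counts each transcript once.

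Cytokine and helper genes were few. Ifng, the interferon gamma gene, had 5 UMIs in 5 barcodes and 0 in the other retained barcodes, and Tbx21, the transcription factor T-bet that drives it, also had 5 in 5. Tnf had 4 UMIs in 3 barcodes, against 240 in the others. Regulatory and costimulatory genes were at a similar depth, with 12 UMIs in 9 barcodes for Tnfrsf18, 6 in 5 for Icos and 6 in 3 for Ctla4. Cxcr3, a chemokine receptor of effector T and NK cells, had 8 UMIs in 7 barcodes and 1 in the others.

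Naive and central memory genes were present at modest ratios. Of 12 genes of that list, 10 were higher in T and NK barcodes, with a median ratio of 4.02. Tcf7, a transcription factor of naive and memory T cells, had 16 UMIs in 10 barcodes and a ratio of 69.5. Ccr7, the receptor that guides cells to lymph nodes, had 10 in 5 and a ratio of 5.19, and Il7r, the interleukin 7 receptor, had 14 in 11 and a ratio of 3.74. The other retained barcodes held 67 and 130 UMIs of these last genes.

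Other leading genes were of the lymphocyte GTPase and serpin families. Gimap6, Gimap4 and Gimap5, GTPases of lymphocyte survival, had 70, 33 and 28 UMIs with ratios of 19.6, 57.3 and 30.4. Serpina3g and Serpinb6b, protease inhibitors, had 15 and 18 UMIs with ratios of 74.5 and 23.2. AW112010, an interferon-inducible transcript, had 84 UMIs in 24 barcodes and a ratio of 55.1. MHC class I genes were all higher, 9 of 9 with a median ratio of 3.81: B2m, the shared light chain, stood at 41.8 UMIs per 10000 against 15.7. The median ratio of the 950 genes with at least 15 UMIs in these barcodes was 1.59, against which that list and the naive list should be read.

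Lists of other programmes were not raised. Of 14 cell division genes 5 were higher (median ratio 0.74), of 12 interferon response genes 6 were higher (0.74), and of 19 immediate-early genes 4 were higher (0.54). Of 10 microglial genes 0 were higher, with a median ratio of 0.11. Basophil and mast cell genes had 0 UMIs in the 79 barcodes, which allows up to 3.8% of barcodes with one.

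The barcodes divided along the receptor lists, and Ccl5 and Gzma went with the NK side. Among the 15 barcodes with an NK receptor UMI and no T cell receptor or CD3 UMI, all 15 held Ccl5 and 10 held Gzma. Of the 26 with both kinds of receptor UMI, 23 held Ccl5 and 6 held Gzma. Of the 24 with T cell receptor or CD3 UMIs alone, 7 held Ccl5 and 1 held Gzma. In UMIs per 10000, Ccl5 stood at 99.1 in the NK set, 69.9 in the mixed set and 11.5 in the T set, and Gzma at 46.8, 7.92 and 0.64 in the same order. The rule asks the NK set to hold at least 2 UMIs of Ms4a4b, Nkg7, Gzma or Xcl1. Its high Gzma is thus partly set by the choice. Ccl5 was not used, but 16 of the 17 barcodes with Gzma and 35 of the 51 with Nkg7 held it. The difference in Ccl5 between the sets is therefore not free of that choice.

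**Figure D2:**
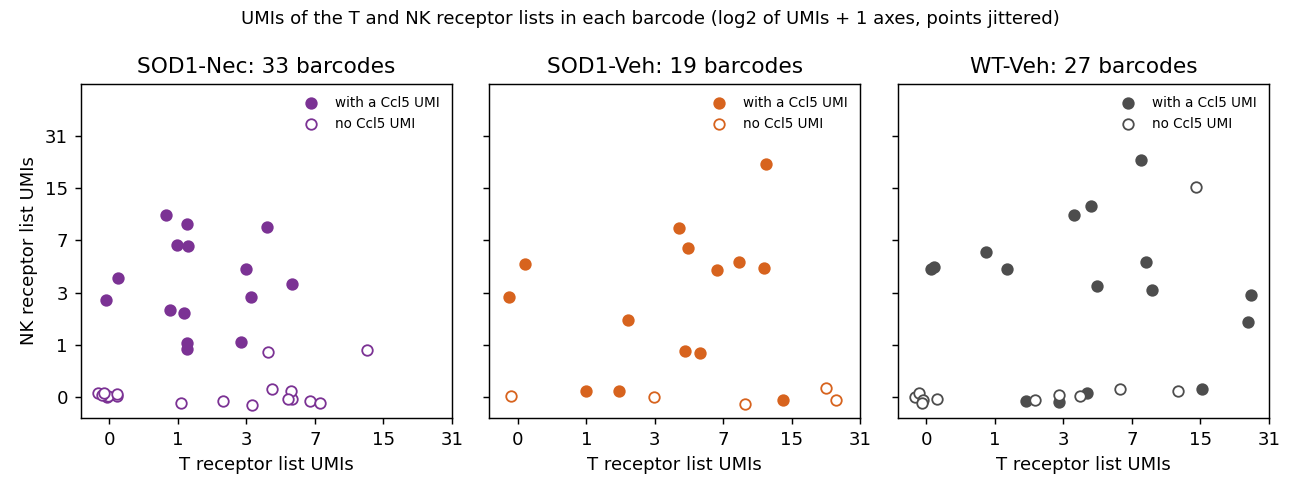
UMIs of the NK receptor list (vertical axis) against UMIs of the T receptor list (horizontal axis) in each barcode, on log2(UMIs + 1) axes, for 33 SOD1-Nec, 19 SOD1-Veh and 27 WT-Veh barcodes; filled points held a Ccl5 UMI. The barcodes along the bottom, with no NK receptor UMI, are mostly open, and those above it are mostly filled in all 3 groups.

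Ccr7 was found in 5 of the 24 barcodes of the T set and in 0 of the 26 mixed and 0 of the 15 NK barcodes, which allows shares of up to 11.5% and 20%. Cd8b1 followed the same counts, with 5, 0 and 0 barcodes, and Igfbp4, a gene of naive T cells, was found in 5, 1 and 0. Lef1, a transcription factor paired with Tcf7 in naive T cells, was found in 4, 2 and 1. Tcf7 itself was found in 2 barcodes of the T set, 8 of the mixed set and 0 of the NK set. Median depth was 574 UMIs in the T set, 975 in the mixed set and 545 in the NK set, so the mixed barcodes were the deepest, and whether they are single cells with both kinds of transcript was not tested.

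Signalling genes were spread over the sets. Lck was found in 6 of the T, 7 of the mixed and 2 of the NK barcodes, and Cd7, a glycoprotein of T and NK cells, in 1, 10 and 3. Xcl1 was found in 2, 10 and 4. Klrd1 was found in 15 of the 26 mixed barcodes and 4 of the 15 NK barcodes, and Ncr1 in 6 and 4; their absence from the T set follows from how the sets were made. The most receptor-rich barcode held 27 UMIs of the T list, the highest NK list sum was 23, and 11 barcodes reached 10 UMIs of the T list against 6 of the NK list.

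**Figure D3:**
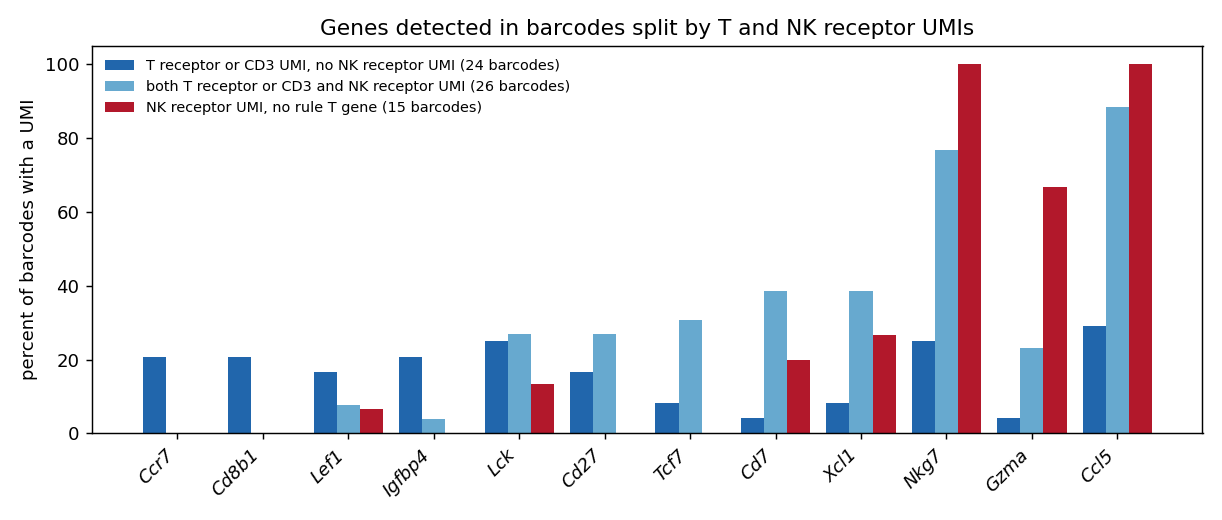
Percent of barcodes with at least 1 UMI of each gene, for 24 barcodes with T cell receptor or CD3 UMIs alone, 26 with both kinds and 15 with NK receptor UMIs alone; the genes were chosen after their values were seen. Ccr7 and Cd8b1 bars stand in the first set, and Nkg7, Gzma and Ccl5 are tallest in the NK set, where 15 of 15 barcodes held Ccl5.

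The share of T and NK barcodes did not differ detectably between groups. They made up 2.72% and 1.89% of the 661 and 794 retained barcodes of SOD1-Nec, 2.26% and 2.29% of the 399 and 437 of SOD1-Veh, and 2.72% and 2.35% of the 515 and 554 of WT-Veh. The exact 95% binomial intervals of the 6 libraries overlapped, from 1.62 to 4.27% and 1.06 to 3.10% in SOD1-Nec, 1.04 to 4.24% and 1.10 to 4.17% in SOD1-Veh, and 1.49 to 4.52% and 1.26 to 3.98% in WT-Veh. Intervals and floors throughout cover counting error alone. The groups averaged 2.31 ± 0.590% in SOD1-Nec, 2.27 ± 0.0231% in SOD1-Veh and 2.53 ± 0.263% in WT-Veh (SD, n = 2 libraries each).

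A fit over the barcode numbers of 13 cell classes gave the size of each difference. With edgeR's quasi-likelihood test and Benjamini-Hochberg adjustment over the classes, the log2 change in share was 0.0097 ± 0.50 (SE) for SOD1-Nec against SOD1-Veh (adjusted p = 0.985), and -0.15 ± 0.51 for SOD1-Veh against WT-Veh (adjusted p = 0.933). For SOD1-Nec against WT-Veh it was -0.14 ± 0.47 (adjusted p = 0.910). With standard errors of this size, changes of moderate size in either direction were not detectable. Counting the 66 barcodes with a receptor UMI alone, the shares were 1.97% and 1.64% in SOD1-Nec, 2.26% and 2.06% in SOD1-Veh, and 1.94% and 2.17% in WT-Veh. Shares are of retained barcodes, so they move with the number of other cells recovered.

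**Figure D4:**
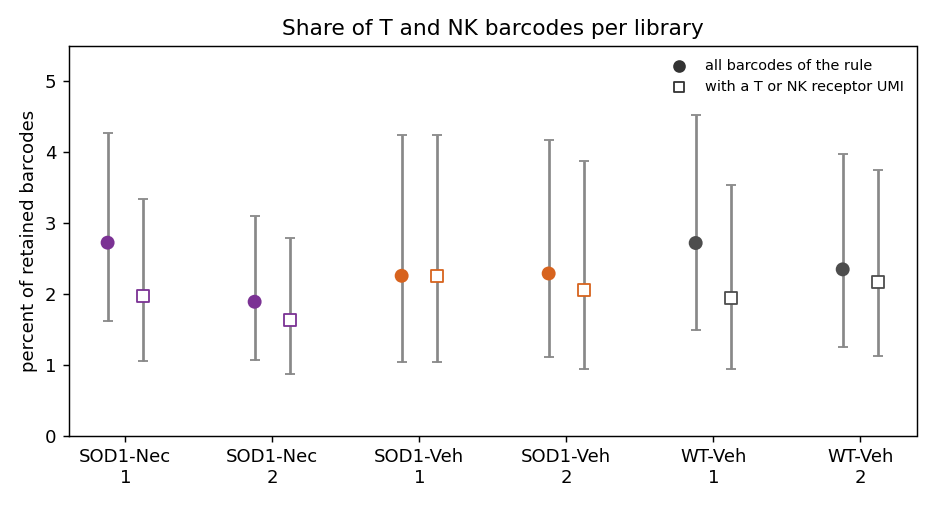
Percent of retained barcodes that were T and NK barcodes in each library (filled points), and the percent with a T or NK receptor UMI (open squares); bars are exact 95% binomial intervals. The intervals of all 6 libraries overlap, and SOD1-Nec replicate 2 was lowest at 1.89%.

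T cell receptor RNA was found in a higher share of the T and NK barcodes of SOD1-Veh when all 79 were counted. A T cell receptor or CD3 UMI was found in 61.1% and 46.7% of the barcodes in SOD1-Nec, 88.9% and 70% in SOD1-Veh, and 64.3% and 61.5% in WT-Veh. Both SOD1-Veh libraries stood above the other 4. These genes helped to choose the barcodes, and an exact permutation test of 2 libraries against 2 cannot go below p = 0.333, so the shares are a description. With every barcode thinned to 300 UMIs, which left none out, the shares were 44.4% and 40% in SOD1-Nec, 77.8% and 60% in SOD1-Veh, and 50% and 38.5% in WT-Veh. An NK receptor UMI was found in 44.4% and 60% of the barcodes in SOD1-Nec, 55.6% and 60% in SOD1-Veh, and 28.6% and 69.2% in WT-Veh. The WT-Veh libraries thus lay at both ends of that range. Over the 66 barcodes with a receptor UMI, the SOD1-Veh libraries no longer both stood above the other 4. There the shares were 84.6% and 53.8% in SOD1-Nec, 88.9% and 77.8% in SOD1-Veh, and 90% and 66.7% in WT-Veh. The mean was still highest in SOD1-Veh, at 83.3%, against 69.2% in SOD1-Nec and 78.3% in WT-Veh.

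Levels were compared on UMIs summed per library over the 79 barcodes, with edgeR over 245 genes that passed its filter on low counts. The comparisons share libraries: SOD1-Veh enters as the vehicle group of one and the mutant group of another. For SOD1-Veh against WT-Veh, edgeR called 0 genes (0%) at an adjusted p under 0.05, 25 genes had an unadjusted p under 0.05, and DESeq2 called 1, Sod1. For SOD1-Nec against SOD1-Veh, 5 genes were called higher (2.04% of the genes tested) and 0 lower. For SOD1-Nec against WT-Veh, 6 genes were called higher (2.45%) and 0 lower. Over the 66 barcodes with a receptor UMI, 167 genes were tested, and edgeR called 1 for SOD1-Veh against WT-Veh (0.599%), 10 for SOD1-Nec against SOD1-Veh (5.99%) and 12 for SOD1-Nec against WT-Veh (7.19%). Without the 4 barcodes rich in red cell or myelin RNA, these counts were 1 (0.61%), 7 (4.27%) and 6 (3.66%) of 164 genes.

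Sod1 separated the mutant from the wild-type libraries. It stood at 57.6 and 26.6 UMIs per 10000 in the T and NK barcodes of SOD1-Nec (54 and 39 UMIs), 33.0 and 43.0 in SOD1-Veh (26 and 61 UMIs), and 4.19 and 1.23 in WT-Veh (11 and 2 UMIs). Every mutant library lay above both wild-type libraries. Against WT-Veh, Sod1 rose in SOD1-Nec by 3.93 ± 0.54 (log2 ± SE, edgeR adjusted p = 0.0161). With the replicate number as a block it was not called (3.97, edgeR adjusted p = 0.0926), nor without SOD1-Veh replicate 2 (3.93, edgeR adjusted p = 0.103). Over the 66 barcodes with a receptor UMI the difference was 4.15 and was called. For SOD1-Veh against WT-Veh the log2 difference was 3.58 ± 0.55, which edgeR did not call (adjusted p = 0.111) and DESeq2 did (adjusted p = 3.2e-05). edgeR called it over the 66 barcodes with a receptor UMI (log2 difference 3.74) and over the 62 left without those rich in red cell or myelin RNA (3.69), where it was the single call of that comparison. Between SOD1-Nec and SOD1-Veh it was 0.34 ± 0.44 (edgeR adjusted p = 0.689).

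Sod1 was also abundant in free RNA of the same libraries. In barcodes with under 100 genes it stood at 52.1 and 59.2 UMIs per 10000 in SOD1-Nec, 32.4 and 42.3 in SOD1-Veh, and 0.978 and 0.789 in WT-Veh. The part of that RNA in the T and NK values was not tested. A Sod1 UMI was found in 16 of 18 and 13 of 15 T and NK barcodes in SOD1-Nec, 6 of 9 and 8 of 10 in SOD1-Veh, and in 5 of 14 and 2 of 13 for WT-Veh.

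Globin genes made up most of the calls for SOD1-Nec, and they rested on few barcodes. Hbb-bs, a beta globin of red cells, stood at 140 and 188 UMIs per 10000 in SOD1-Nec, 22.9 and 22.6 in SOD1-Veh, and 27.8 and 42.4 in WT-Veh. It rose in SOD1-Nec by 3.15 ± 0.46 against SOD1-Veh (edgeR adjusted p = 0.0219) and by 2.47 ± 0.44 against WT-Veh (edgeR adjusted p = 0.0463). A single barcode held 111 of the 131 Hbb-bs UMIs in SOD1-Nec replicate 1, and another held 205 of the 275 in SOD1-Nec replicate 2. Hba-a2, Hba-a1 and Hbb-bt rose with it, by 3.67, 3.66 and 3.10 against SOD1-Veh and by 3.54, 3.64 and 3.07 against WT-Veh, with edgeR adjusted p from 0.00609 to 0.0219.

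The 3 barcodes rich in red cell RNA held T or NK receptor UMIs as well. They had 240, 101 and 405 UMIs of the erythroid list among 658, 545 and 747 UMIs in all, and another SOD1-Nec barcode had 127 oligodendrocyte list UMIs among 644. The barcode with 405 erythroid UMIs also held 4 NK receptor list UMIs, 8 Ccl5 UMIs and 5 Gzma UMIs. Whether these were more than 1 cell in a droplet was not tested, and Scrublet is not a check on red cells, which carry few kinds of RNA. Without these 4 barcodes, Hbb-bs stood at 24.8 and 11.2 UMIs per 10000 in SOD1-Nec, and its log2 difference was -0.25 against SOD1-Veh and -0.82 against WT-Veh. Of 242 genes tested, edgeR then called 0 for SOD1-Nec against SOD1-Veh (0%), with 36 at an unadjusted p under 0.05, and 2 for SOD1-Nec against WT-Veh (0.826%), among them Sod1.

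The remaining calls were a ribosomal protein and a mitochondrial RNA. Rplp2, a ribosomal stalk protein, stood at 44.8 and 41.7 UMIs per 10000 in SOD1-Nec, 19.0 and 19.0 in SOD1-Veh, and 31.6 and 39.9 in WT-Veh. It rose by 1.45 ± 0.24 in SOD1-Nec against SOD1-Veh (edgeR adjusted p = 0.0320), and its WT-Veh libraries lay between. The mitochondrial ribosomal RNA mt-Rnr1 rose by 1.67 ± 0.30 in SOD1-Nec against WT-Veh (edgeR adjusted p = 0.0463), with 86.4 and 56.7 UMIs per 10000 in SOD1-Nec against 21.7 and 29.5 in WT-Veh. In SOD1-Veh it stood at 47.0 and 34.6. Both genes were also highest in SOD1-Nec in the other retained barcodes. There Rplp2 stood at 16.96 and 19.97 UMIs per 10000 in SOD1-Nec, 11.91 and 9.499 in SOD1-Veh, and 11.68 and 7.647 in WT-Veh. In those barcodes mt-Rnr1 stood at 79.15 and 60.12 in SOD1-Nec, 52.59 and 50.65 in SOD1-Veh, and 38.64 and 39.49 in WT-Veh. Whether the differences in T and NK barcodes were separate from these was not tested. The calls for SOD1-Nec changed when a library was left out: without either WT-Veh library edgeR called 0 genes in both comparisons, without SOD1-Veh replicate 1 it called 0 against SOD1-Veh, and without SOD1-Veh replicate 2 it called 3 in each. Rplp2 and mt-Rnr1 kept their calls in 0 of the 6 fits that left out a library (edgeR adjusted p 0.0904 to 0.234 and 0.0511 to 0.579), and neither was called without the 4 barcodes rich in red cell or myelin RNA or with the replicate number as a block. That fit without the 4 rich barcodes held the 75 others, with or without a receptor UMI. Over the 66 barcodes with a receptor UMI both were called, with mt-Rnr1 at 1.33. Both were also called over the 62 of these left without the rich barcodes.

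The lower genes with the smallest p, none of them called, were mostly of ribosomal proteins. For SOD1-Nec against SOD1-Veh, the lower ones included Rps6 at -1.35 (edgeR adjusted p = 0.138), Rpl3 at -1.05 and Rpl35 at -1.28. For SOD1-Nec against WT-Veh they were led by Rpl3 at -0.78 and Tmsb10, an actin-binding peptide, at -1.24. For SOD1-Veh against WT-Veh, the lower ones included Rps12 at -1.21. Among the higher genes with the smallest p in that comparison, also not called, was S100a6, a calcium-binding protein, at 1.33.

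For SOD1-Nec against SOD1-Veh, Ccl5 was lower without passing the test. It stood at 22.4 and 19.1 UMIs per 10000 in SOD1-Nec (21 and 28 UMIs), 83.8 and 68.4 in SOD1-Veh (66 and 97 UMIs), and 13.7 and 65.1 in WT-Veh (36 and 106 UMIs). Both SOD1-Nec libraries lay under both SOD1-Veh libraries, and the WT-Veh libraries lay on either side. The log2 difference was -1.59 ± 0.65 for SOD1-Nec against SOD1-Veh (edgeR adjusted p = 0.286), 0.93 ± 0.62 for SOD1-Veh against WT-Veh (adjusted p = 0.495) and -0.66 ± 0.65 for SOD1-Nec against WT-Veh (adjusted p = 0.736).

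Single barcodes weighed on Ccl5 too. The highest barcode held 8 Ccl5 UMIs in each SOD1-Nec library, 25 and 53 in SOD1-Veh, and 11 and 45 in WT-Veh. A Ccl5 UMI was found in 7 of 18 and 8 of 15 barcodes in SOD1-Nec, 7 of 9 and 7 of 10 in SOD1-Veh, and in 6 of 14 and 10 of 13 for WT-Veh. After thinning to 300 UMIs the shares were 27.8% and 40% in SOD1-Nec, 77.8% and 50% in SOD1-Veh, and 42.9% and 69.2% in WT-Veh. Both SOD1-Nec libraries then stayed under both SOD1-Veh libraries. Over the 66 barcodes with a receptor UMI, Ccl5 stood at 31.7 and 34.3 UMIs per 10000 in SOD1-Nec, 83.8 and 82.5 in SOD1-Veh, and 33.5 and 69.7 in WT-Veh, with a log2 difference of -1.37 for SOD1-Nec against SOD1-Veh. With the 4 barcodes rich in red cell or myelin RNA also left out, a setting added after the values were seen, it was -1.82 over 62 barcodes, and edgeR counted Ccl5 among its 7 calls for SOD1-Nec against SOD1-Veh (4.27% of 164 genes tested). All 4 of the barcodes left out were of SOD1-Nec, and they held 0, 8, 1 and 8 Ccl5 UMIs. Leaving them out thus lowered Ccl5 in SOD1-Nec alone, which widened the difference. Over all T and NK barcodes without them, Ccl5 stood at 16.1 and 14.2 UMIs per 10000 in SOD1-Nec.

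MHC class I genes present peptides to CD8 T cells and engage NK receptors. The list summed to 86.4 and 53.9 UMIs per 10000 in SOD1-Nec, 141 and 119 in SOD1-Veh, and 75.8 and 144 in WT-Veh. Over the barcodes with a receptor UMI it summed to 87.5 and 77.1 in SOD1-Nec, 141 and 130 in SOD1-Veh, and 118 and 145 in WT-Veh, so that the SOD1-Nec libraries lay under the other 4. Of 4 list genes tested over all 79 barcodes, 0 were called by edgeR for SOD1-Nec against SOD1-Veh, 1 was above 0, and the median log2 difference was -0.61, against 0.03 over all 245 genes. H2-D1, a class I heavy chain, was at -0.95 ± 0.33 (edgeR adjusted p = 0.236).

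Immediate-early genes respond to stimulation and to tissue dissociation. Their list summed to 88.6 and 39.6 UMIs per 10000 in SOD1-Nec, 122 and 97.3 in SOD1-Veh, and 70.8 and 118 in WT-Veh. Over the 66 barcodes with a receptor UMI it summed to 67.9 and 53.8 in SOD1-Nec, 122 and 99.5 in SOD1-Veh, and 152 and 119 in WT-Veh, so that both SOD1-Nec libraries lay under the other 4. Of 8 tested over all 79 barcodes, 0 were called for SOD1-Nec against SOD1-Veh, 1 was above 0 and the median log2 difference was -0.57, with Nfkbia at -1.50 and Klf6 at -1.29. Against WT-Veh, 3 of the 8 were above 0 in SOD1-Nec, with a median of -0.50. For SOD1-Veh against WT-Veh, 5 of the 8 were above 0, with a median of 0.21. In the other retained barcodes the immediate-early list was also lowest in SOD1-Nec, at 104.6 and 112.5 UMIs per 10000. There it summed to 177.1 and 132.02 in SOD1-Veh, and 162.15 and 156.54 in WT-Veh. Whether the differences in T and NK barcodes were separate from these was not tested. The T and NK barcodes of SOD1-Nec were also the shallowest, and the part of depth in their differences was not tested.

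**Figure D5:**
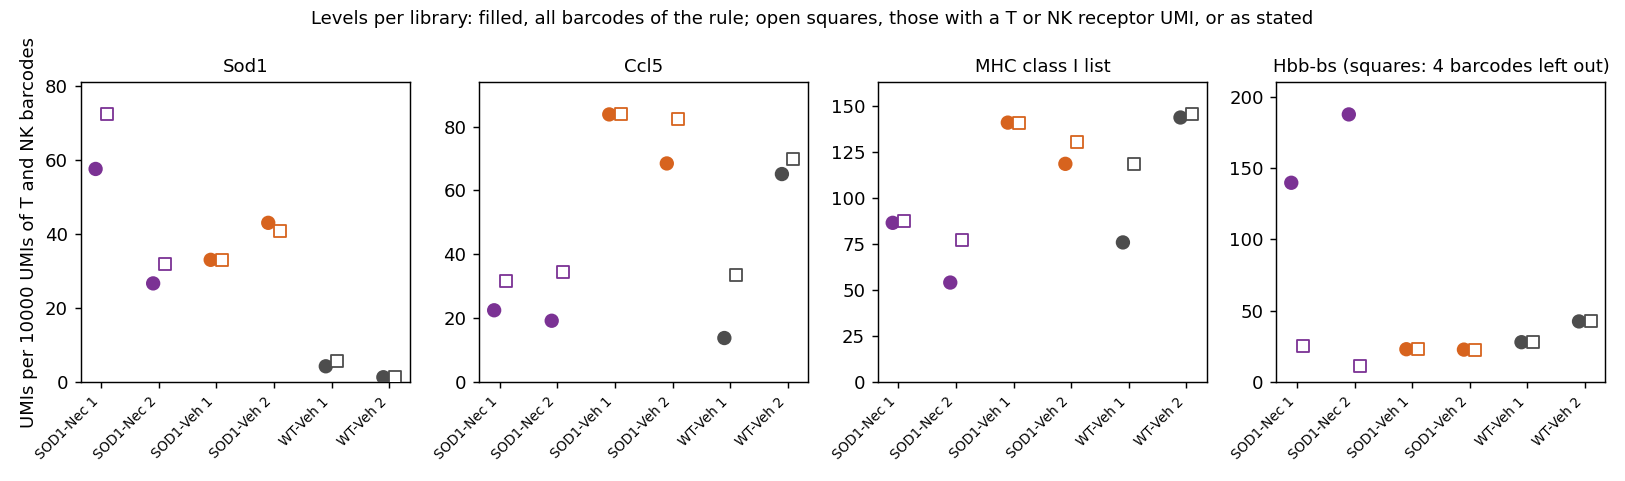
UMIs per 10000 UMIs of the T and NK barcodes in each library for Sod1, Ccl5, the MHC class I list and Hbb-bs; filled points are all barcodes of the rule, and open squares are barcodes with a T or NK receptor UMI, or, for Hbb-bs, all barcodes without the 4 rich in red cell or myelin RNA. Sod1 is near 0 in WT-Veh, Ccl5 in SOD1-Nec lies under SOD1-Veh, and the raised Hbb-bs of SOD1-Nec is gone in the open squares.

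Erythroid and oligodendrocyte list sums were highest in SOD1-Nec in these barcodes, and the erythroid difference rested on the few barcodes rich in red cell RNA. The erythroid list summed to 301 and 371 UMIs per 10000 in SOD1-Nec, 34.3 and 47.3 in SOD1-Veh, and 45.3 and 64.5 in WT-Veh, and to 48.2 and 28.5 in SOD1-Nec without the 4 rich barcodes. The oligodendrocyte list summed to 275 and 107 in SOD1-Nec, 85.1 and 73.4 in SOD1-Veh, and 45.7 and 53.4 in WT-Veh, with 150 in SOD1-Nec replicate 1 when its rich barcodes were left out. Free RNA, in barcodes with under 100 genes, had another order. There this list was lowest in SOD1-Nec, at 178 and 123 UMIs per 10000. It summed to 448 and 469 in SOD1-Veh, and 289 and 244 in WT-Veh. The part of free RNA in the T and NK values was not tested. The 3 oligodendrocyte genes tested had medians of 0.97 for SOD1-Nec against SOD1-Veh and 0.61 for SOD1-Veh against WT-Veh, and 0 were called by edgeR. Over the 66 barcodes with a receptor UMI the list summed to 332 and 176 in SOD1-Nec, 85.1 and 70.6 in SOD1-Veh, and 57.8 and 55.3 in WT-Veh, and edgeR called Mbp and Mobp, genes of myelin, higher in SOD1-Nec against WT-Veh. C1qb, a complement gene that marks microglia, had 10 UMIs over the 79 barcodes.

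Counts of the rule genes also varied between libraries. Trbc2 had 14 and 8 UMIs in SOD1-Nec, 15 and 8 in SOD1-Veh, and 27 and 32 in WT-Veh. Gzma had 7 and 13 in SOD1-Nec, 3 and 5 in SOD1-Veh, and 15 and 28 in WT-Veh, or 7.47 and 8.88, 3.81 and 3.53, and 5.71 and 17.2 UMIs per 10000 in the same order. Trbc2 counts were highest in WT-Veh. Per 10000 UMIs Trbc2 stood at 14.9 and 5.46 in SOD1-Nec, 19.0 and 5.64 in SOD1-Veh, and 10.3 and 19.7 in WT-Veh. The groups overlapped on that scale. Over all 79 barcodes, both SOD1-Veh libraries had less Gzma per 10000 than the other 4. Without the 4 barcodes rich in red cell or myelin RNA, Gzma stood at 2.48 and 5.99 in SOD1-Nec. Replicate 1 of SOD1-Nec then lay under both SOD1-Veh libraries. Both genes helped to choose the barcodes, so these are descriptions.

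The necroptosis genes that Necrostatin-1s acts on were scarcely detected in these barcodes. Ripk1, the kinase that the compound inhibits, had 3 UMIs in 3 barcodes, Ripk3, its partner kinase, had 1 in 1, and Mlkl, which breaks the membrane in necroptosis, had 0 in 79, which allows up to 3.8% of barcodes with a UMI. No comparison between groups was possible for these 3 genes at this depth.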

How the data were processed

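The authors deposited raw UMI counts, whole numbers for each gene and barcode of a library. The build is mm9, per the submitters' processing notes; no aligner or gene annotation is named in the sources used here. Libraries numbered replicate 1 list 18169 genes and those numbered replicate 2 list 18650, of which the 17042 in common were used. Barcodes were chosen by the rule above, and the members and gene lists were chosen with earlier results of these data known. UMIs were summed per library (88620 in all) and fitted over all 6 libraries with edgeR 4.0.16 in R 4.3.3 (TMM, filterByExpr, Benjamini-Hochberg over genes); DESeq2 1.42.0 was an alternative. Scripts were tested on simulated counts. Scrublet ran in scanpy 1.11.5, and exact intervals came from scipy 1.17.1. Named genes were the rule genes, Ccl5, the 25 largest ratios outside the rule with at least 15 UMIs in at least 5 libraries, the called genes and those with the smallest p, up to 5 of each list, and genes looked up by name; others were chosen after their values were seen. Some genes that the rule names are not reported here. Each library held 9 to 18 T and NK barcodes, with medians of 448.5 to 1087.5 UMIs. Alternatives changed the rule, filters, scaling, tool and libraries.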

Additional observations from a re-analysis of the deposited data

Results flagged for a closer look

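Barcodes left out by the filters also met the marker rule. Under 200 genes, it was met by 0.207% of barcodes in SOD1-Nec replicate 1 (6 of 2898) and 0.111% in SOD1-Nec replicate 2 (2 of 1807), against 0.0315% (1 of 3176) and 0 of 3245 in SOD1-Veh, which allows up to 0.0924%, and 0 of 3024, which allows up to 0.0992%, and 0.0332% (1 of 3015) in WT-Veh. Of those 6 and 2 barcodes, 5 and 1 held a T or NK receptor UMI. Among barcodes with at least 200 genes and over 20% mitochondrial UMIs, 0.901% of SOD1-Nec replicate 1 met the rule (2 of 222), against 0 of 235 and 0 of 256 in WT-Veh, which allow up to 1.28% and 1.17%, so this share was within what those counts of 0 allow. It was 0 of 187 in SOD1-Nec replicate 2 and 0 of 276 and 0 of 218 in SOD1-Veh. These shares were listed as signal in barcodes outside the comparisons, and no difference was tested.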

How the results depend on the processing

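No share difference was called under any alternative (adjusted p 0.196 to 1). For SOD1-Veh against WT-Veh the log2 share change turned positive with at least 1 rule UMI (0.18), at least 3 (0.033), at least 100 genes (0.17), and a receptor UMI required with or without the 4 barcodes rich in red cell or myelin RNA (0.067 each), and left-out libraries gave -0.26 to -0.05. For SOD1-Nec against SOD1-Veh it turned negative with at least 1 UMI (-0.039), 3 UMIs (-0.16), 100 genes (-0.13), 400 genes (-0.40), Scrublet-marked barcodes out (-0.0036), blood leukocyte barcodes as the denominator (-0.12), and a receptor UMI required (-0.26; -0.50 without rich barcodes), and left-out libraries gave -0.26 to 0.26. For SOD1-Nec against WT-Veh it turned positive with at least 1 UMI (0.14), 100 genes (0.040) and up to 40% mitochondrial UMIs (0.11), and left-out libraries gave -0.42 to 0.11. The cause was not tested. Genes called for SOD1-Veh against WT-Veh, 0 in the report, were 11 with no low-count filter and 1 each with DESeq2 and with a receptor UMI required, with or without rich barcodes (0.599% and 0.61% of genes tested); left-out libraries gave 0. For SOD1-Nec against SOD1-Veh, 5 became 15 with no filter, 12 with DESeq2, 10 with a receptor UMI (5.99%), 7 when rich barcodes were also out (4.27%), 0 without the rich barcodes and 0 with at least 1 UMI; left-out libraries gave 0 to 5, with 0 without SOD1-Veh replicate 1 or either WT-Veh library. For SOD1-Nec against WT-Veh, 6 became 10 with no filter, 10 with DESeq2, 12 with a receptor UMI (7.19%), 6 when rich barcodes were also out (3.66%), 2 without the rich barcodes and 0 with at least 1 UMI; left-out libraries gave 0 to 6, with 0 without either WT-Veh library. Hbb-bs turned negative without rich barcodes (-0.25 against SOD1-Veh, -0.82 against WT-Veh; -0.19 and -0.82 with a receptor UMI required). Settings with a receptor UMI or without rich barcodes were chosen after seeing the data. With the replicate number as a block, SOD1-Nec had 1 call against SOD1-Veh and 1 against WT-Veh, Hba-a2 in both, and the calls of Sod1, Rplp2, mt-Rnr1 and the other globins were lost. Tables with the same replicate number list the same genes, but the labels name no batch. Same-numbered libraries deviated with correlations of 0.109, -0.610 and -0.179 over all 79 barcodes and 0.152, 0.107 and 0.022 over the 66 with a receptor UMI, so pairing by number was not established. Leaving out barcodes with at least 3 UMIs of any other lineage left 3 barcodes and was not fitted. Each library held 9 to 18 of these barcodes, which limits the size of difference that could be seen.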

Other observations

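The myeloid progenitor list summed to 99.1 UMIs per 10000 in the 13 barcodes without a receptor UMI and to 0 in each of the T, mixed and NK sets, and the neutrophil list summed to 1430 against 4.48, 4.24 and 4.45. Barcodes with at least 15 monocyte list UMIs were also present among those with a receptor UMI, at 2 of 66, of which 1 was the deepest of these barcodes with 5022 UMIs in SOD1-Veh replicate 2. Ly6c2, a surface antigen of monocytes and of memory T cells, had 187 UMIs in 35 of the 79 barcodes, 101 of them in the 13 without a receptor UMI. Over the lists, cytotoxic granule genes summed to 126 UMIs per 10000 in the NK set, 47.2 in the mixed set and 18.6 in the T set, where Nkg7 and Gzma, which helped to choose the NK set, gave 37.8 and 46.8 of the 126, and naive and memory genes to 27.8, 25.5 and 46.1.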
